A study of Mus musculus with 8 samples.

Results

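Gdf15, Fgf21 and the genes of their receptors were followed in mouse heart, as 6 genes of the 50599 records in each library. They were chosen by name, as a pair of secreted signals raised when mitochondria fail together with their receptor genes, and the choice was made with measured values of the comparison between knockout and wildtype in view. Their own differences between the groups are therefore given as a description and carry no test. The ligands are Gdf15 and Fgf21. The receptor genes are Gfral for Gdf15, and Klb, Fgfr1 and Fgfr4 for Fgf21.

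The study removed Lrpprc, a protein that binds and protects mitochondrial RNA, from heart and skeletal muscle of C57BL/6N mice. Knockout animals carried Lrpprc loxP/loxP with Cre and controls, labelled wildtype, carried Lrpprc loxP/loxP without Cre, so that loss of Lrpprc and presence of Cre cannot be told apart. The promoter that drives Cre is not given in the sources used here. All animals were males aged 12 weeks on normal chow, and total RNA from the hearts of 4 wildtype and 4 knockout mice was sequenced, 1 library for each heart. Because the gene was removed in skeletal muscle too, the measurements describe RNA in the heart of an animal whose muscle was also affected.

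GDF15 is a distant member of the TGF-beta family that circulates as a hormone. Its receptor is GFRAL, which is found in the hindbrain and signals through the tyrosine kinase RET to reduce food intake. FGF21 is an endocrine fibroblast growth factor, best known from liver, that acts only where the co-receptor beta-klotho, made by Klb, stands beside an FGF receptor, chiefly FGFR1. FGFR4 pairs with beta-klotho mainly in liver. Both hormones are called mitokines because muscle and other tissues release them when their mitochondria are impaired, and the transcription factors ATF4 and CHOP, made by Ddit3, are known to act on both genes.

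Total expected counts, the estimated number of sequenced fragments, lay between 35218541 and 47743376 per library. Mitochondrial rRNA took 44.0 to 46.9% of them in the wildtype and 65.6 to 67.8% in the knockout. TPM values, which divide by transcript length and by the library total and so set a level per length and are used here for every comparison between genes, are diluted by this share in the knockout. Normalised counts, scaled by the median ratio to the other libraries, are used for every fold change and test between groups, and summed levels of marker genes are given in TPM with this dilution in them. Lrpprc fell in every knockout library, from 3665 ± 216 to 577 ± 48.6 normalised counts (SD, n = 4 each), a log2 fold change of -2.67. In total RNA of heart tissue, fewer cells of a type and less RNA per cell cannot be told apart. The summed level of 8 cardiomyocyte genes was 16364 to 18195 TPM in the wildtype and 8323 to 9638 TPM in the knockout, so the tissue was heart in all libraries. By the DESeq2 test on normalised counts 7 of these 8 genes were lower and 0 higher. The sum of 8 fibroblast genes was 203 to 218 against 191 to 556 TPM, with 4 genes higher and 0 lower. That of 8 macrophage genes was 42.0 to 58.0 against 44.3 to 114 TPM, with 7 genes higher and 0 lower. Knockout replicate 3 stood apart on the second principal component, at 68.5 against -27.3 to -22.9 in the other knockout libraries, and had the lowest sums of fibroblast, macrophage, endothelial, mural and atrial genes and the highest sum of erythroid genes of the knockout group. The erythroid sum was 1276 to 1614 TPM in the wildtype and 806 to 2707 TPM in the knockout, with 0 of 6 genes called. The part of these differences in the results below was not tested.

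Of the 6 genes, 4 had enough counts to enter the test across all records and 2 of those, the ligands, were higher in the knockout at an adjusted p under 0.05, while 0 were lower. Among all 19959 records tested by DESeq2, 33.7% passed that threshold, 18.2% higher and 15.5% lower. Because the comparison chose the genes, nothing is read from that count. Gfral and Fgfr4 had too few counts to enter the test, and Klb entered it with at most 5 counts in a library. The plot of counts in each library shows the separation of the ligands and the near absence of these 3 receptor genes.

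**Figure D1:**
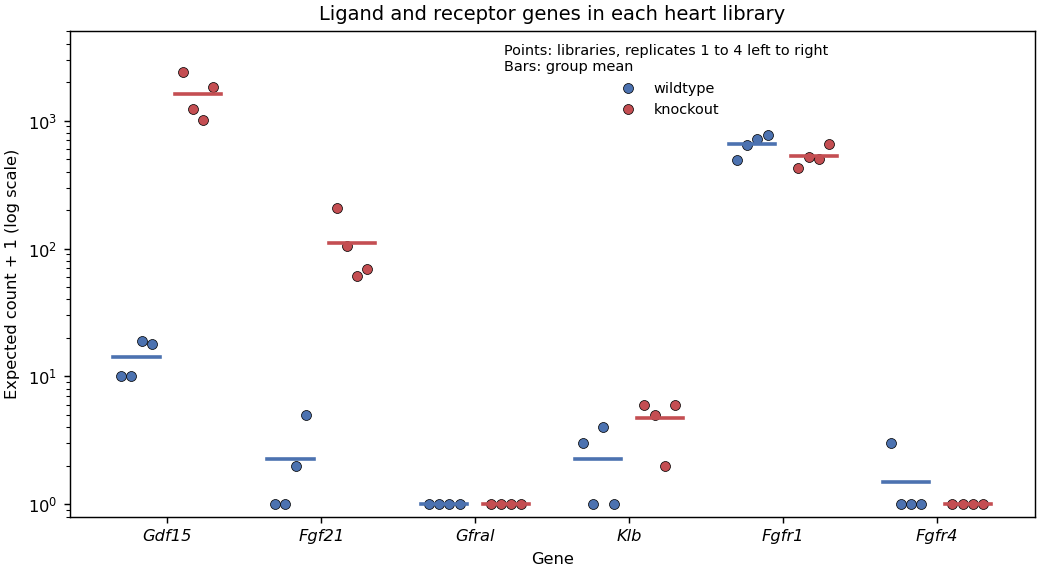
Expected count plus 1 (log axis) of the 6 genes in each library, with wildtype in blue, knockout in red and horizontal bars for group means. Gdf15 lay at 9 to 18 counts in the wildtype and 1004 to 2390 in the knockout, Fgf21 at 0 to 4 and 60 to 207, Gfral was at 0 throughout, and Fgfr1 overlapped between the groups.

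Gdf15 was present at a low level in every wildtype heart and among the more abundant RNAs of every knockout heart. The gene (ENSMUSG00000038508.7) is read from the minus strand of chromosome 8, between 70629393 and 70632456 (GRCm38). Wildtype replicates 1 to 4 held 9, 9, 18 and 17 expected counts of Gdf15, against 2390, 1224, 1004 and 1833 in the knockout replicates in that order. The lowest knockout library was thus far above the highest wildtype library, and the groups did not overlap. The level was 0.27 ± 0.0739 TPM in the wildtype and 34.5 ± 12.8 TPM in the knockout (SD, n = 4 each). The normalised count went from 12.2 ± 3.37 to 1704 ± 650, a log2 fold change of 7.12 with an SE of 0.32. By level Gdf15 held rank 612, 1056, 1488 and 840 of all records in knockout replicates 1 to 4, against rank 14250 to 15909 in the wildtype. Its log2 fold change was the 18th highest of all records tested. The estimate was 7.27 without knockout replicate 3.

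The annotation gives Gdf15 a pair of transcripts that begin at different sites. The shorter, of 1380 bases in 3 exons, begins at 70632456, and the longer, of 1545 bases in 2 exons, begins at 70632095. The deposited gene length is weighted by the abundance of each transcript, which allows the share of the longer form to be computed. The transcript models used here are those of GENCODE M21, whereas the deposited lengths were made with the M13 release, so the shares hold only if both releases give these transcripts the same lengths. The length was exactly that of the shorter form in all 4 wildtype libraries, a share of 0% that rests on 9 to 18 counts each. In knockout replicates 1 to 4 the share was 34.0, 37.4, 39.7 and 25.3%, a mean of 34.1% ± 6.34 (SD, n = 4). The longer form thus took part of the reads in every knockout library, with the lowest share in replicate 4. The 471 bases found only in the longer form, from 70631625 to 70632095, are intron in the shorter form, so unspliced RNA of the shorter form would be counted there as well. The share was not tested between the groups, since it comes from the comparison that chose the gene.

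The sequence around both start sites is shown because each transcript was assigned reads in the knockout. These windows, 250 bases before to 50 bases after a start site, were taken from RefSeq (GRCm38.p6), which held windows for 5 of the 6 genes and none for Fgfr1. They were searched on both strands for TGATGNAA, the core of the element to which ATF4 binds with a C/EBP partner, and for TGACGTCA, the CRE palindrome. Neither motif was found in the Gdf15 windows, which says only that these letters are absent from these 300 bases. The windows are given on the minus strand, as chr8:70632407-70632706 for the shorter and chr8:70632046-70632345 for the longer transcript.
Gdf15, start site of the shorter transcript: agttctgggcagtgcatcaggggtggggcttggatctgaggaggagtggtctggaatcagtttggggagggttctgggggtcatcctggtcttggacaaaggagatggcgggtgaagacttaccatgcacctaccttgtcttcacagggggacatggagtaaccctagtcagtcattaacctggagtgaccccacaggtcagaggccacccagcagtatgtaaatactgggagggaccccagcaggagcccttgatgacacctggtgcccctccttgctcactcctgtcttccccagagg
Gdf15, start site of the longer transcript: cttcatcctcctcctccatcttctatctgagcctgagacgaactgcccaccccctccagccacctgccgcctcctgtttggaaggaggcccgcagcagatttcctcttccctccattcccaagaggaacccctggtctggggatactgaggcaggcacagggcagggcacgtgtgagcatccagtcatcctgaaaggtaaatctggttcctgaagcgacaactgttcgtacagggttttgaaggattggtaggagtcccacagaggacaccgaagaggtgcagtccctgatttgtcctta

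Fgf21 was at the limit of detection in the wildtype and moderately expressed in the knockout. The gene (ENSMUSG00000030827.5) is read from the minus strand of chromosome 7, between 45613886 and 45615490, and has a single annotated transcript of 951 bases in 3 exons. Wildtype replicates 1 to 4 held 0, 0, 1 and 4 expected counts of Fgf21, against 207, 104, 60 and 68 in the knockout replicates in that order. Every knockout library was above every wildtype library, and knockout replicate 1 stood highest. The level was 0.035 ± 0.052 TPM in the wildtype and 3.85 ± 2.36 TPM in the knockout (SD, n = 4 each). Normalised counts were 1.02 ± 1.52 and 121 ± 77.8, with a log2 fold change of 6.76 (SE 0.80), the 22nd highest of all records tested. Because the wildtype held 5 counts in all, its size is uncertain. The ratio of pooled counts, scaled by the normalisation factors of the libraries, was 104 with an exact 95% interval of 44.2 to 322, which covers counting error only, and the log2 fold change was 8.46 without wildtype replicate 4, which held 4 of these 5 counts. It was 6.98 without knockout replicate 3.

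Fgf21 is a gene of liver and adipose tissue, so the markers of those tissues were read beside it. The summed level of 8 hepatocyte genes was 1.72 to 3.69 TPM in the wildtype and 1.93 to 8.25 TPM in the knockout, with Serpina1a at 0 in all libraries, and 2 of its 4 tested genes were higher in the knockout and 0 lower. That of 8 adipocyte genes was 132 to 156 against 99.8 to 144 TPM, and 0 of its 7 tested genes passed the threshold. Knockout replicate 1, in which Fgf21 was highest, had the lowest hepatocyte sum and the highest adipocyte sum of the knockout group. The part of these cell types in the Fgf21 values was not tested.

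The window around the Fgf21 start site is shown because it holds the motif sought. Among the 5 genes with a window, Fgf21 alone held TGATGNAA, on the strand opposite to the gene, where the gene's own strand reads TTGCATCA, with its first base at position -139 from the start site. Of all 32851 windows of 300 bases in the RefSeq table, 3.97% held this motif and 1.79% held TGACGTCA. A match is a description of the letters and does not show binding. The window is chr7:45615441-45615740 on the minus strand, with the match in capitals.
Fgf21, start site: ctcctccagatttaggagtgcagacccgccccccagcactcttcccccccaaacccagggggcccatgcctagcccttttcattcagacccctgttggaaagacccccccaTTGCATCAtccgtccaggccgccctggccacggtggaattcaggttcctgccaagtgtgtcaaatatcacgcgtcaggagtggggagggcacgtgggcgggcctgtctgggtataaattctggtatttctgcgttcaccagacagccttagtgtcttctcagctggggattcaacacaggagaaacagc

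In the knockout Gdf15 was the more abundant ligand in every library. Its TPM exceeded that of Fgf21 by 7.13, 7.25, 10.3 and 16.9 times in knockout replicates 1 to 4. Knockout replicate 1 was highest for both ligands, but the libraries then fell in different orders, with Gdf15 second in replicate 4 and Fgf21 second in replicate 2. Knockout replicate 3 had the lowest level of both ligands in TPM. In normalised counts it was lowest for Gdf15 only, since Fgf21 was at 63.9 in replicate 4 and 69.1 in replicate 3. The 4 knockout hearts therefore shared a high level of both ligands but varied in TPM by up to 2.42-fold in Gdf15 and 3.48-fold in Fgf21.

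**Figure D2:**
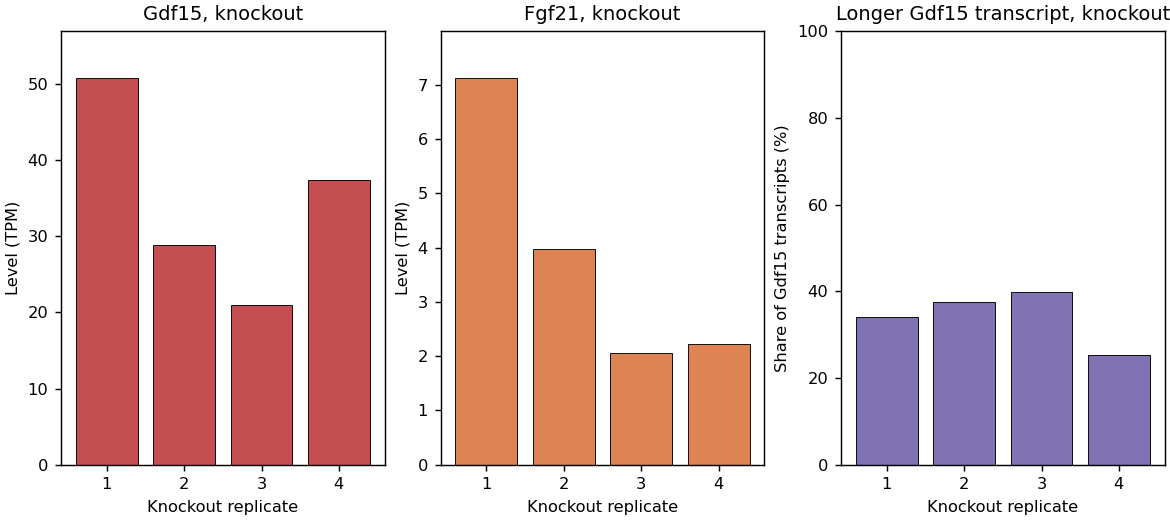
Level of Gdf15 and of Fgf21 in TPM, and share of Gdf15 transcripts in the longer form in percent, in knockout replicates 1 to 4. Bars are single libraries. Gdf15 ran from 21.0 to 50.8 TPM, Fgf21 from 2.05 to 7.13 TPM, and the share of the longer form from 25.3 to 39.7%.

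Of the receptor genes Gfral and Fgfr4 were too rare for a change to be seen. Gfral (ENSMUSG00000059383.14, chromosome 9, 76164102 to 76213657, minus strand) had 0 counts in all 8 libraries. At these depths 3 counts, the limit that a count of 0 allows, correspond to 0.0362 to 0.0504 TPM, so a count of 0 does not exclude a level below that. Fgfr4 (ENSMUSG00000005320.9, chromosome 13, 55152640 to 55168759, plus strand) was seen only in wildtype replicate 1, with 2 counts, and stood at 0 elsewhere. Both groups were under the floor of 3 counts, and no fold change is given.

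Klb, the co-receptor without which FGF21 does not act, was near the floor in both groups. The gene (ENSMUSG00000029195.10) is read from the plus strand of chromosome 5, between 65348314 and 65384007. Wildtype replicates 1 to 4 held 2, 0, 3 and 0 expected counts of Klb, against 5, 4, 1 and 5 in the knockout replicates. The groups overlapped, since knockout replicate 3 lay within the wildtype range, while the other 3 knockout libraries were above all wildtype libraries. Pooled counts of 5 and 15, scaled by the normalisation factors of the libraries, gave a ratio of 3.55 with an exact 95% interval of 1.23 to 12.5. That interval is for counting error only and leaves out the spread between animals, so no rise is read from it. The fit across libraries gave a log2 fold change of 1.45 with an SE of 1.20. Leaving out a library gave values from 1.02 without wildtype replicate 4 to 2.51 without wildtype replicate 3. In TPM the level was 0.015 ± 0.0191 and 0.0325 ± 0.015 (SD, n = 4 each).

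Fgfr1 was the only receptor gene of the set with a substantial level. The gene (ENSMUSG00000031565.18) is read from the plus strand of chromosome 8, between 25513654 and 25575718, where the annotation also holds an antisense gene, Gm16159. Reads were counted by strand. Wildtype replicates 1 to 4 held 478, 706, 550 and 601 normalised counts of Fgfr1, against 428, 583, 741 and 600 in the knockout replicates. The groups overlapped over most of their range. The means were 584 ± 95.8 and 588 ± 128, with a log2 fold change of 0.01 (SE 0.19). It was -0.29 when libraries were scaled by total counts and 0.43 when mitochondrial rRNA was left out of the total, scalings that moved all genes together. Measured against the median of the records whose mean normalised count reached 10, it was at -0.01 to -0.02, which follows from that common shift.

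The order of the 6 genes by level differed between the groups. In the wildtype Fgfr1 led at 5.24 ± 0.848 TPM and Gdf15 followed at 0.27 TPM, with Fgf21, Fgfr4 and Klb at 0.035, 0.0175 and 0.015 TPM, which overlapped, and Gfral at 0. In the knockout Gdf15 led at 34.5 TPM. Fgfr1 at 4.81 ± 1.0 TPM and Fgf21 at 3.85 TPM came next with overlapping libraries, and Klb at 0.0325 TPM was far below. Fgfr1 provided 60.3 to 71.7% of the summed TPM of Fgfr1, Fgfr2, Fgfr3 and Fgfr4 in the wildtype and 46.6 to 56.7% in the knockout.

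Scalings by library totals moved all genes together and bear on every direction given below. Over the 15754 records whose mean normalised count reached 10, scaling by total counts moved the median log2 fold change by -0.30, and leaving mitochondrial rRNA out of the total moved it by 0.43. Since a scaling adds nearly the same amount to every gene, a value measured against that median is nearly fixed in advance. Measured so, Gdf15 stood at 7.10 under each of these 3 scalings, the main one included, and Fgf21 at 6.74, 6.74 and 6.75. The calls among all records were 3628 higher and 3100 lower in the main test, 1924 and 5912 with total counts, and 7950 and 1111 without mitochondrial rRNA. Median-ratio scaling from nuclear records alone moved the median by only -0.00029 and gave 3628 higher and 3103 lower. Total counts hold the mitochondrial rRNA, whose share differed between the groups. The genes of the lists that follow were not members and were tested by DESeq2 across all records. The median log2 fold change of all records tested was 0.01. Of these records 18.2% were called higher and 15.5% lower, and the counts of each list are to be read beside these shares.

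Among the other FGF ligands 14 of 21 genes were tested, of which 2 were higher and 6 lower, with a median of -0.34. The split was 1 and 8 with total counts and 2 and 2 without mitochondrial rRNA in the total. Fgf23, the bone-derived phosphate hormone that is the third klotho-dependent FGF beside Fgf21 and Fgf15, had a log2 fold change of 7.42 (SE 2.39, adjusted p = 0.0078). It rested on a part of the group, with 0, 84, 2 and 97 counts in knockout replicates 1 to 4 against 0, 0, 0 and 1 in the wildtype, so the groups overlapped and no adjusted p was given without knockout replicate 2 or 4. With the replicate number added to the DESeq2 fit it was at 5.38 and did not pass (adjusted p = 0.138). Fgf15, which pairs with FGFR4, was at 0 in all libraries. Fgf6, a muscle FGF, was higher at 7.86 ± 3.40 against 19.8 ± 6.24 normalised counts (log2 fold change 1.33, SE 0.51, adjusted p = 0.028). The call was lost in 5 of the 8 runs that each left out a library, with total counts and with the replicate number in the fit (adjusted p = 0.0895).

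The FGFs that fell are locally acting or intracellular. Fgf16, which is made by cardiac muscle, fell from 164 ± 31.5 to 46.0 ± 10.9 normalised counts (log2 fold change -1.82, SE 0.24, adjusted p = 2.12e-12), with all knockout libraries below all wildtype libraries. Fgf14, an intracellular FGF that binds sodium channels, fell from 55.3 ± 21.6 to 10.1 ± 2.56 (log2 fold change -2.46, SE 0.43, adjusted p = 1.12e-07). Fgf1, Fgf2, Fgf9 and Fgf18, named here after their values were seen, fell by 0.57 to 1.08 on the log2 scale. None of these 4 passed without mitochondrial rRNA in the total, and the call of Fgf18 was also lost in 4 of the 8 runs that each left out a library.

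Of the 5 other FGF receptor and klotho genes, Fgfr3 rose and the other 4 did not pass the test. Fgfr3 had 142, 143, 254 and 173 normalised counts in wildtype replicates 1 to 4 and 231, 301, 665 and 390 in the knockout replicates. The highest wildtype library was above the lowest knockout library. The fitted fold change was 2.23 (adjusted p = 0.0012), and Fgfr3 was called higher under each of the 15 alternatives run. Fgfr2 (-0.10, SE 0.48, or 0.54 with no length offset) and Fgfrl1, a receptor without a kinase domain (0.31, SE 0.21), had larger uncertainty relative to their change, although Fgfrl1 passed at 0.73 when mitochondrial rRNA was left out of the total. Kl, the klotho of FGF23, had 4.77 ± 0.533 and 3.62 ± 1.23 normalised counts (log2 fold change -0.40, SE 0.75), and Lctl, a klotho relative, 1.21 ± 1.08 and 3.71 ± 2.93 (1.39, SE 1.27).

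**Figure D3:**
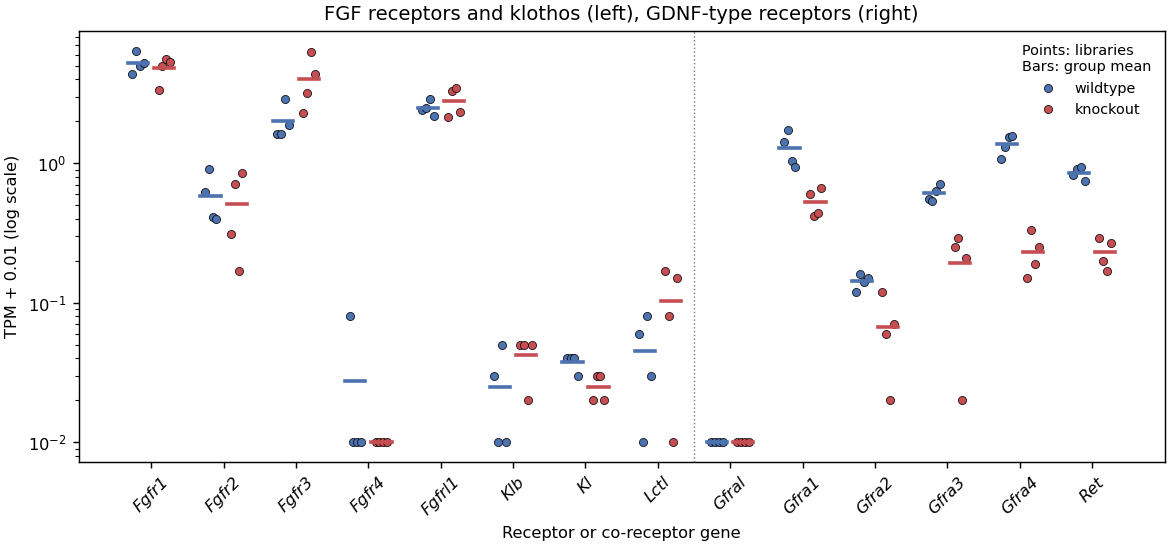
TPM plus 0.01 (log axis) of FGF receptor and klotho genes, left of the dotted line, and of Gfral, its relatives and Ret, right of it. Points are libraries and bars group means. Gfral and the knockout libraries of Fgfr4 are at 0, and Gfra4 and Ret are lower in all knockout libraries than in any wildtype library.

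Among the relatives of the GDF15 receptor and their ligands, every call was a fall. Of the 9 genes of the GDNF family 8 were tested, with 0 higher, 5 lower and a median log2 fold change of -1.12. Among all records tested 18.2% were higher and 15.5% lower. Ret, the kinase through which GFRAL signals, had 134, 149, 155 and 125 normalised counts in the wildtype replicates and 53.8, 33.6, 32.0 and 44.4 in the knockout replicates. All knockout libraries were below the wildtype (log2 fold change -1.78, SE 0.22, adjusted p = 4.19e-14). Gfra4, the co-receptor for persephin, fell from 60.9 ± 11.2 to 10.7 ± 3.50 normalised counts (log2 fold change -2.53, SE 0.36, adjusted p = 2.24e-11). Gfra1, which binds GDNF, fell by 1.14 on the log2 scale (SE 0.25, adjusted p = 5.71e-05) with no overlap between the groups.

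Gfra3 and the ligand Nrtn were less secure. Gfra3, which binds artemin, fell by 1.61 on the log2 scale (SE 0.49, adjusted p = 0.0045), with 1 count in knockout replicate 3, and its adjusted p was 0.0571 without mitochondrial rRNA in the total. Nrtn, which encodes neurturin, fell by 0.61 (SE 0.24, adjusted p = 0.035) with overlapping groups, and its call was lost in 6 of 8 runs that each left out a library and without mitochondrial rRNA in the total. Gfra2 at -1.10 (SE 0.60), Gdnf at -0.95 (SE 1.17) and Artn at 2.51 (SE 1.62) did not pass the test. Gfra2 was at -1.78 (adjusted p = 0.0223) without knockout replicate 1, and Artn at 1.55 without knockout replicate 4 and at 0.81 with no length offset. Markers of neurons and glia, in which RET is best known, summed to 1.42 to 2.21 TPM in the wildtype and 2.67 to 4.21 TPM in the knockout, with 1 gene higher and 1 lower of 5 tested. Their part in these values was not tested.

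The genes that carry the FGF signal inside the cell moved in both directions. Of 21 relay genes 6 were higher and 4 lower, with a median of 0.0047. Shc1, an adaptor of receptor tyrosine kinases, rose from 506 ± 60.1 to 984 ± 90.4 normalised counts (log2 fold change 0.96, SE 0.12). Pik3r1, the regulatory subunit of PI3 kinase (-0.79, SE 0.19), and Grb2, the adaptor that recruits SOS (-0.72, SE 0.18), fell. The balance followed the scaling, at 2 higher and 10 lower with total counts and 13 and 0 without mitochondrial rRNA, where both of these falls no longer passed the test. Without knockout replicate 3 the falls numbered 7.

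Among genes that respond to FGF and ERK signalling, calls upward outnumbered calls downward. Of 22 tested 7 were higher and 1 lower, with a median of 0.40, where 18.2% of all records tested were higher and 15.5% lower. Dusp4, a phosphatase that acts on ERK, had 41.3, 27.1, 29.5 and 22.5 normalised counts in the wildtype replicates and 789, 762, 1004 and 996 in the knockout replicates (log2 fold change 4.90, SE 0.21, adjusted p = 1.64e-122). Myc rose from 22.5 ± 7.63 to 259 ± 65.7 (log2 fold change 3.54, SE 0.29, adjusted p = 3.06e-33). The ETS factors Etv4 and Etv5 rose by 2.15 (SE 0.61) and 1.89 (SE 0.16), and the value of Etv4 depended on the length offset, with 2.96 when none was used. Spry1, Dusp6 and Spred1, feedback inhibitors named here after their values were seen, rose by 0.80, 1.14 and 0.32, while Etv1 fell by 0.62. The call of Spred1 was lost in 6 of the 8 runs that each left out a library and with total counts, and that of Etv1 without mitochondrial rRNA in the total. The immediate early genes Egr1, at -0.05 (SE 0.92), and Fos, at -0.26 (SE 0.43), did not pass, although without knockout replicate 1 Egr1 was at -1.24 and Fos was called lower at -0.89 (adjusted p = 0.0254). Many of these genes answer to other signals through ERK as well. With total counts the numbers were 6 higher and 2 lower, and without mitochondrial rRNA 14 and 0.

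Among other ligands of the TGF-beta family, of which Gdf15 is a distant member, 4 of 23 tested were higher and 3 lower, with a median of -0.02. These shares were near those of all records tested, 18.2% higher and 15.5% lower. The split was 3 and 4 with total counts and 7 and 2 without mitochondrial rRNA in the total. Gdf6, a bone and joint morphogen, had 5.30, 8.71, 6.08 and 4.82 normalised counts in the wildtype replicates and 83.7, 176, 41.5 and 164 in the knockout replicates (log2 fold change 4.23, SE 0.50, adjusted p = 1.54e-15). Tgfb2 rose from 140 ± 52.5 to 629 ± 214 (log2 fold change 2.17, SE 0.30), and Inhba, the activin A subunit, from 12.2 ± 4.36 to 35.5 ± 15.3 (log2 fold change 1.57, SE 0.44). Bmp3 fell from 44.5 ± 9.58 to 7.47 ± 6.30 (log2 fold change -2.62, SE 0.54). None of these ligands reached the fitted change of Gdf15.

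Of the proteases that process or inactivate such hormones, 11 were tested, with 2 higher and 1 lower. The split was 1 and 3 with total counts and 3 and 1 without mitochondrial rRNA in the total. Pcsk6, a proprotein convertase of muscle, fell from 1280.2 ± 83.1 to 486 ± 176 normalised counts (log2 fold change -1.40, SE 0.23, adjusted p = 2.83e-08). Mmp14, a membrane metalloprotease, and Pcsk5, another convertase, rose by 0.85 (SE 0.18) and 0.75 (SE 0.24). The call of Pcsk5 was lost with total counts (adjusted p = 0.162) and without knockout replicate 2 (0.0517) or 4 (0.058). Fap, the protease that inactivates FGF21, was at 80.9 ± 11.1 and 87.0 ± 30.8 normalised counts (0.11, SE 0.30), and Furin at -0.39 (SE 0.17, adjusted p = 0.058), which passed as a fall under 6 of the 15 alternatives, without wildtype replicate 4 or knockout replicate 3 among them (-0.47 and -0.46).

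The transcription factors and cofactors known to act on Gdf15 or Fgf21 moved in both directions. Of 31 tested 12 were higher and 8 lower, with a median of -0.0020, and the split was 9 and 13 with total counts and 17 and 3 without mitochondrial rRNA. Ddit3 had 206, 190, 141 and 154 normalised counts in the wildtype replicates and 1087, 1472, 1060 and 814 in the knockout replicates (log2 fold change 2.68, SE 0.20, adjusted p = 2.87e-38). Atf4 rose from 997 ± 80.8 to 6083 ± 1048 (log2 fold change 2.61, SE 0.14, adjusted p = 9.20e-75) and Atf5 from 317 ± 39.0 to 1595 ± 224 (log2 fold change 2.33, SE 0.14). The groups did not overlap for any of these stress factors. Mlxipl, the carbohydrate-responsive factor ChREBP that induces Fgf21 in liver, fell from 342 ± 24.5 to 75.5 ± 46.1 (log2 fold change -2.19, SE 0.35, adjusted p = 4.75e-09). Ppara, the fasting-responsive nuclear receptor that induces Fgf21 in liver and is named here after its value was seen, fell from 884 ± 94.9 to 457 ± 79.8 (log2 fold change -0.95, SE 0.16).

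Of 34 other factors secreted by heart and muscle that were tested, 16 were higher and 7 lower, with a median of 0.77, where 18.2% of all records tested were higher and 15.5% lower. The split was 14 and 10 with total counts and 21 and 3 without mitochondrial rRNA. Ostn, musclin, had 0, 2, 1 and 0 counts in the wildtype replicates and 317, 284, 343 and 408 in the knockout replicates, and Adm2, intermedin, 0, 2, 1 and 1 against 161, 118, 134 and 139. Their fitted log2 fold changes, 9.06 (SE 0.85) and 7.36 (SE 0.75), were the ones of this list above the 6.76 of Fgf21. Without wildtype replicate 2, which held 2 counts of each, they were 10.1 and 7.97. The order of Adm2 and Fgf21 is not settled, since Fgf21 was at 8.46 without wildtype replicate 4. The highest knockout library of Ostn and of Adm2 exceeded the lowest by 1.2 and 1.38 times in normalised counts, against 3.62 times for Fgf21. Il6 rose by 4.71 (SE 0.91), with only 3 counts in knockout replicate 3 against 18 to 72 in the others. Spp1, osteopontin, had 16, 613, 11 and 872 counts in the knockout replicates against 14 to 28 in the wildtype, so that its log2 fold change of 4.46 (SE 1.21) rested on replicates 2 and 4, as did that of Fgf23. No adjusted p was given for Spp1 without knockout replicate 2 or 4. The heart hormones Nppa and Nppb, named here after their values were seen, rose by 1.73 (SE 0.12) and 2.44 (SE 0.23). Of 6 genes of atrial muscle, Nppa was the 1 called higher and 3 were lower, with a median log2 fold change of -1.77. Their sum was 887 to 1045 TPM in the wildtype and 1166 to 1953 TPM in the knockout. It holds Nppa itself, so its rise is not a separate measure of atrial tissue. The part of atrial tissue in these values was not tested.

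**Figure D4:**
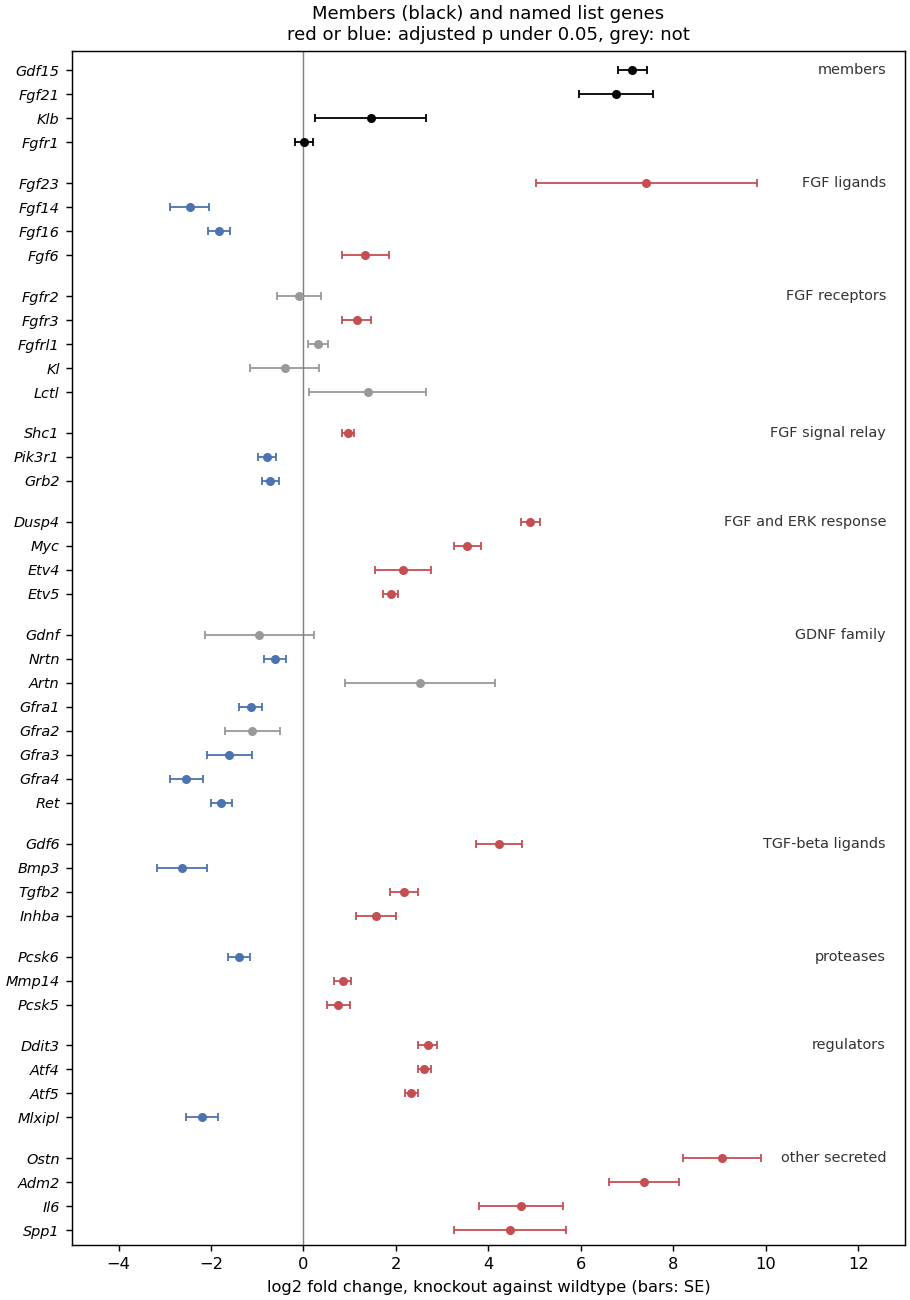
Log2 fold change of the knockout against the wildtype with its SE, for the 4 members that entered the test across all records (black, description only) and the genes described from each list (red higher or blue lower at an adjusted p under 0.05, grey not). Gdf15 at 7.12 and Fgf21 at 6.76 stand with Fgf23, Ostn and Adm2, of which Fgf23 has the widest error at 2.39.

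**Figure D5:**
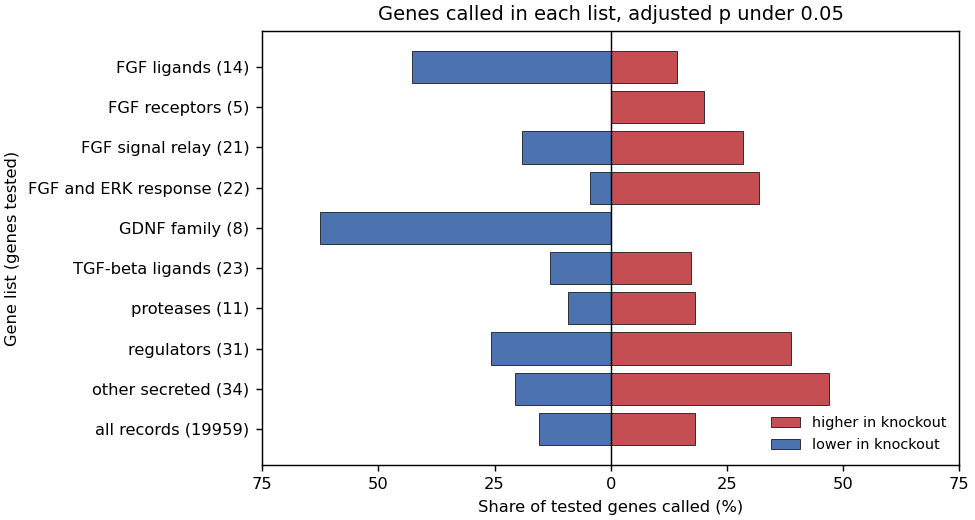
Share of the tested genes of each list that were called higher (right) or lower (left) in the knockout, with all 19959 records at the bottom, of which 18.2% were higher and 15.5% lower. The number of genes tested is in brackets, and GDNF family genes, 8 tested, have calls in the lower direction alone.

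The records whose profiles were most like the ligands were sought among the 12169 whose mean normalised count reached 50, by Pearson r of log2(normalised count + 1) over the 8 libraries. These libraries share the split into groups, so a high r mostly marks a gene with a clear difference between them, and 600 records had an r over 0.95 with Gdf15 and 290 with Fgf21. The 8 most like Gdf15 were Aldh18a1, Slc38a1, Yars, Ero1l, Rnf185, Gas5, Gm19410 and Slc1a4, with r from 0.998 to 0.996. Aldh18a1 makes a precursor of proline, Slc38a1 and Slc1a4 carry neutral amino acids, Yars charges tRNA with tyrosine and Ero1l oxidises disulfides in the endoplasmic reticulum. Their log2 fold changes lay between 1.26 for Rnf185 and 4.84 for Gm19410, all smaller than that of Gdf15. The 8 most like Fgf21 were Pvt1, Mtmr12, Fam198b, Rangap1, Adap1, Kpnb1, Sergef and Cpxm2, with r from 0.994 to 0.985. Pvt1 is a long noncoding RNA beside Myc, and Rangap1 and Kpnb1 serve nuclear transport. No record was on both lists. The lists were not stable, since by rank correlation 0 of the 8 for Gdf15 and 2 of the 8 for Fgf21 stayed, and on TPM 4 of each. Of the 16 genes 12 had a promoter window and 2, Yars and Slc1a4, held TGATGNAA, which 3.97% of all 32851 windows hold. The former is a count of genes picked from these same data and the latter a share of windows, so nothing is read from the difference.

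The genes next to each ligand on the chromosome, chosen by position after the data were seen, showed whether a wider region moved. Fut1, a fucosyltransferase gene on the other strand 1798 bases from Fgf21, had 2, 0, 1 and 0 counts in the wildtype replicates and 16, 12, 8 and 3 in the knockout replicates. It rose with no overlap between the groups (log2 fold change 3.77, SE 1.18, adjusted p = 0.0057), at counts that remained low, and was at 4.61 without wildtype replicate 1, which held 2 of its 3 wildtype counts. Izumo1 (0.35, SE 0.61) and Bcat2 (-0.40, SE 0.18) did not pass the test, and Hsd17b14, at 0 to 1 counts in each library, was not tested. Of the neighbours of Gdf15, Lrrc25 (1.0, SE 0.55), Pgpep1 (-0.04, SE 0.16), Ssbp4 (-0.23, SE 0.19) and Lsm4 (0.37, SE 0.17) did not pass either. Leaving out 1 library brought a call for Bcat2 (-0.56) and Lrrc25 (1.36) without knockout replicate 3 and for Lsm4 (0.45) without knockout replicate 4. Bcat2 was also called lower by edgeR (-0.43, adjusted p = 0.0371), with no length offset (adjusted p = 0.0445) and with total counts (-0.70). Ssbp4 was called lower with total counts (-0.51), and Lsm4 (0.78) and Lrrc25 (1.46) higher without mitochondrial rRNA in the total.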

How the data were processed

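Total RNA from 8 mouse hearts was sequenced after cytoplasmic rRNA depletion with random hexamer priming, and the samples were grouped by their labels. To make the deposited expected counts the authors ran RSEM 1.2.31, with Bowtie2 as aligner and paired reads set as reverse-stranded, on GENCODE M13 transcripts plus their own mitochondrial records with 50 added adenines. They also deposited TPM values and abundance-weighted lengths from RSEM, 1 file per library with no pooling. Their results table holds fold changes and p-values and was not used, nor were 8 columns of a further table whose names match no sample label.

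Expected counts were rounded and fitted with DESeq2 1.42.0 in R 4.3.3 on all 8 libraries, with genotype as the single term, effective lengths as an offset and Benjamini-Hochberg adjustment over all records at a threshold of 0.05. The authors also imported these values at gene level and tested them with DESeq2, with tximport 1.4.0 and DESeq2 1.16.1, and the terms of their fit are not given in the sources used here. Fold changes were not shrunk. Depth was 35218541 to 47743376 counts, and p-values measure the spread between 4 animals per group. Intervals and floors cover counting error only. Replicates of a group differed by more than sampling noise (chi-square per degree of freedom 4.40 to 48.3), so each library counted once.

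The members and gene lists were chosen with earlier results of these data known. Named genes were the members, Lrpprc, all counted FGF receptor, klotho and GDNF family genes, in each other list the 4 largest changes past the threshold whose mean normalised count reached 10, and the 8 records most like each ligand. Of the genes this rule gives, 1 is not reported here. Genes named beyond it were chosen after their values were seen. Symbols came from GENCODE M21 (GRCm38) and matched 50339 of 50563 Ensembl identifiers. When tested on simulated data for this comparison with 200 changed genes among 17411 tested, DESeq2 recovered 79.5% of them, and 18.5% of its calls were unchanged genes, so calls near the threshold are less certain than their adjusted p. The fit was repeated by edgeR 4.0.16 (TMM), without the lengths, with a filter of 10 counts in 4 libraries, with other scalings, with a replicate block and without each library in turn, and levels were repeated as TPM over nuclear records.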

Additional observations from a re-analysis of the deposited data

Results flagged for a closer look

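In groups of 4 libraries, single libraries were compared with the other 3 by Dixon's criterion for 123 groups of values, of which 6 passed, where chance gives about 6.15. Among the members, Fgfr4 in wildtype replicate 1 was at 3.06 normalised counts, from 2 reads, against 0 in the other wildtype libraries. Lrpprc in knockout replicate 2 was at 504 normalised counts against 597 to 605 in the other knockout libraries. Fgf23 in wildtype replicate 4 was at 0.804, from 1 read, against 0. Atf5 in wildtype replicate 3 was at 375 against 294 to 300.1, and Spp1 in the same library at 24.3 against 14.9 to 16.1. Yars in knockout replicate 1, the library with the highest Gdf15, was at 1632 against 1273 to 1315.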

How the results depend on the processing

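The log2 fold change of Gdf15 lay between 6.82 and 7.55 and that of Fgf21 between 6.23 and 8.46 over 15 alternatives, with the sign unchanged for both. Leaving out each library gave 6.23 to 8.46 for Fgf21 and 1.02 to 2.51 for Klb, which has too few counts for a firm value. For Fgfr1 the value was -0.29 with total counts and 0.43 with mitochondrial rRNA left out of the total.

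Leaving out each library gave 0 to 2 higher FGF ligands, 3 to 7 lower relay genes, 1 to 2 lower ERK response genes, and 1 to 2 higher and 1 to 2 lower proteases. With edgeR and with the filter of 10 counts, 1 FGF ligand was higher and 2 proteases lower, and 2 proteases were lower with no length offset. With total counts 1 FGF ligand and 1 protease were higher and 3 proteases lower, 2 relay genes were higher and 10 lower, 2 ERK response genes were lower, and 13 regulators were lower. With mitochondrial rRNA left out of the total 2 FGF ligands were lower, 2 FGF receptor genes higher, 13 relay genes higher and 0 lower, 14 ERK response genes higher and 0 lower, 3 GDNF family genes lower, 7 TGF-beta family ligands higher, 3 regulators lower and 3 other secreted factors lower. These scalings moved the median of all records, and no other cause was tested. Every other count stayed within 1.5 times its value.

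The replicate numbers are shared by the groups, but same-numbered libraries did not deviate together (correlations -0.01, -0.04, -0.07 and 0.07). With the replicate block 0 FGF ligands were higher, against 2 without it, Spp1 (log2 fold change 2.70, adjusted p = 0.0975 by DESeq2), Nrtn (-0.63, adjusted p = 0.109), Fgf18 (-1.12, adjusted p = 0.0809) and Spred1 (0.32, adjusted p = 0.0841) no longer passed, Fgf21 was at 7.22 and Gdf15 at 7.05.

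TPM over nuclear records put Gdf15 at 0.474 and 81.7, Fgf21 at 9.10 in the knockout, and Fgfr1 at 9.18 and 11.4, in the wildtype and knockout where 2 values are given. Depth limits Gfral, Fgfr4 and Klb, for which a change below the floor of 3 counts was not detectable.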
